A study of Drosophila melanogaster with 3 samples.

Results

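The 33 genes described here encode the contractile apparatus of Drosophila muscle and its anchors. They are the proteins of thick and thin filaments, troponin C, the Z-disc and the titin-like connecting filaments, and 3 other structural proteins. An entry of a peak list was assigned to a gene when its summit lay in the gene body or within 2 kb of it, and all 33 genes were found among the 13945 protein-coding genes of the annotation. The peaks come from chromatin immunoprecipitation and sequencing of Tinman in 3 biological replicates of whole embryos. These formed 1 group without a second condition. The embryos were 0 to 16 h old, of both sexes, and carried a transgene for Tinman fused at its C-terminus to GFP, and the precipitation used an antibody against GFP. The labels do not say in which cells or from which promoter the transgene was expressed, and a peak from whole embryos cannot be assigned to a cell type. In these windows lay 25 of the 5508 peaks that passed the authors' irreproducible discovery rate threshold (IDR peaks), and 187 of the 30000 entries of the list pooled over replicates. The lists of replicates 1, 2 and 3 contributed 179 of 30000, 170 of 30000 and 136 of 24711 entries.

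A sarcomere is the contractile unit of striated muscle, in which myosin thick filaments slide between actin thin filaments that are anchored at Z-discs. Tropomyosin and the troponins, on the thin filament, make contraction depend on calcium, and titin-like proteins tie the thick filaments to the Z-disc. Tinman is an NK-2 homeodomain protein needed for the dorsal mesoderm and the heart, and Mef2, a MADS-domain factor, is a known activator of many sarcomere genes in the fly. Members of this gene set are expressed in somatic, visceral and cardiac muscle.

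Sequences at the summits are shown for 5 IDR peaks and for the strongest entry of Mhc, the muscle myosin heavy chain gene, which had no IDR peak. The Msp300 and Act87E windows are shown for their Mef2 sites, the tmod window for its Tinman site, Zasp66 for the lowest GC content among the 25 peaks, and Mhc as a contrast in composition. Each is read 5′ to 3′ on the plus strand of dm6 (RefSeq Release 6), centred on the summit, 101 bp long except for tmod with 201 bp. Capitals mark a Tinman site (TCAAGTG or TTAAGTG, either strand) or a Mef2 site (its AT-rich 10-base consensus). Scores are the values of the authors' peak caller, which describe and rank entries within a list, and ranks are places by score in the pooled list, where 1 is the highest score.
Msp300, rank 204 (chr2L:5108128-5108228, plus strand): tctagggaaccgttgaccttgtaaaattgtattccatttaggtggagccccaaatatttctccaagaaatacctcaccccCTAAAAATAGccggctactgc
Msp300, rank 833 (chr2L:5145698-5145798, plus strand): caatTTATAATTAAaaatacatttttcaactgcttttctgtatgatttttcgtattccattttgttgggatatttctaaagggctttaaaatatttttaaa
Act87E, rank 2340 (chr3R:13425602-13425702, plus strand): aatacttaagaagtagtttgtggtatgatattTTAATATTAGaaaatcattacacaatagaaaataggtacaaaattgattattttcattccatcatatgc
tmod, rank 353 (chr3R:30540304-30540504, plus strand): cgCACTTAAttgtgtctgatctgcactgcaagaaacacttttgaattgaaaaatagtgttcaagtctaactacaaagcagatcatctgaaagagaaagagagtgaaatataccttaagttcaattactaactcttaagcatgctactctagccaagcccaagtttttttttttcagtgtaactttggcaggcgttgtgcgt
Zasp66, rank 2861 (chr3L:8629129-8629229, plus strand): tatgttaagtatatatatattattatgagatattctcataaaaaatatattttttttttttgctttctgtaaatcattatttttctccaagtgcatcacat
Mhc, rank 13170, below the IDR list (chr2L:16766430-16766530, plus strand): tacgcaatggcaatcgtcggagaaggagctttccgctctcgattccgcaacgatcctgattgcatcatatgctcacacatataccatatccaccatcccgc

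The summit windows were rich in A and T. The Zasp66 window had a GC content of 18.8% and the Msp300 window of rank 833 one of 21.8%, while the Msp300 window of rank 204 had 43.6% and the Mhc window 50.5%. The median was 32.7% over the 25 IDR peaks of these genes, close to the 34.7% of all 5508 IDR peaks. Over the strongest entries of the 16 genes that had pooled entries but no IDR peak it was 46.5%, beside 42.6% for all 24492 pooled entries below the IDR list.

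As a group the sarcomere genes had IDR peaks about as often as protein-coding genes at large. An IDR summit was present at 13 of the 33 genes (39.4%), against 40.6% of all protein-coding genes. Scored by each replicate's own 5508 highest entries, 15, 12 and 13 genes had such an entry in replicates 1, 2 and 3, against backgrounds of 41.4%, 38.9% and 39.4% of all genes. The shares of these genes were 45.5%, 36.4% and 39.4%, in turn above, below and level with those backgrounds. The mean share was 40.4% ± 4.63 for these genes and 39.9% ± 1.30 for all genes (SD, n = 3). These SDs describe the spread between lists for the same genes, and the difference was not tested. A pooled entry of any rank, IDR peaks included, was present at 29 of 33 genes (87.9%), against 74.8% of all genes. Their median window was 13.1 kb, against 6.17 kb for all genes. Of the genes with a pooled entry, 13 of 29 (44.8%) had an IDR peak, against 54.3%.

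IDR peaks were mostly at the long genes. The 13 genes with a peak had windows with a median of 34.6 kb and a median of 3 promoters (groups of transcription start sites, TSSs, at most 500 bp apart), and the 20 without had 8.93 kb and 1 promoter. Among windows under 10 kb, 3 of 15 genes (20%) had an IDR peak, against 35.5% of all genes with such windows. Between 10 and 30 kb it was 3 of 10 (30%) against 57.2%, and over 30 kb 7 of 8 (87.5%) against 65.5%. Counting gene bodies alone, 7 of 33 genes (21.2%) had an IDR summit, against 12.8%. By the same 3 classes it was 0 of 15 against 5.89%, 2 of 10 against 32.8% and 5 of 8 against 53.9%, so that the share was above the background in windows over 30 kb and below it in narrower ones. With 5 kb either side in place of 2 kb it was 16 of 33 (48.5%) against 54.3%. These shares describe small numbers of genes, and no test was made of them.

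**Figure D1:**
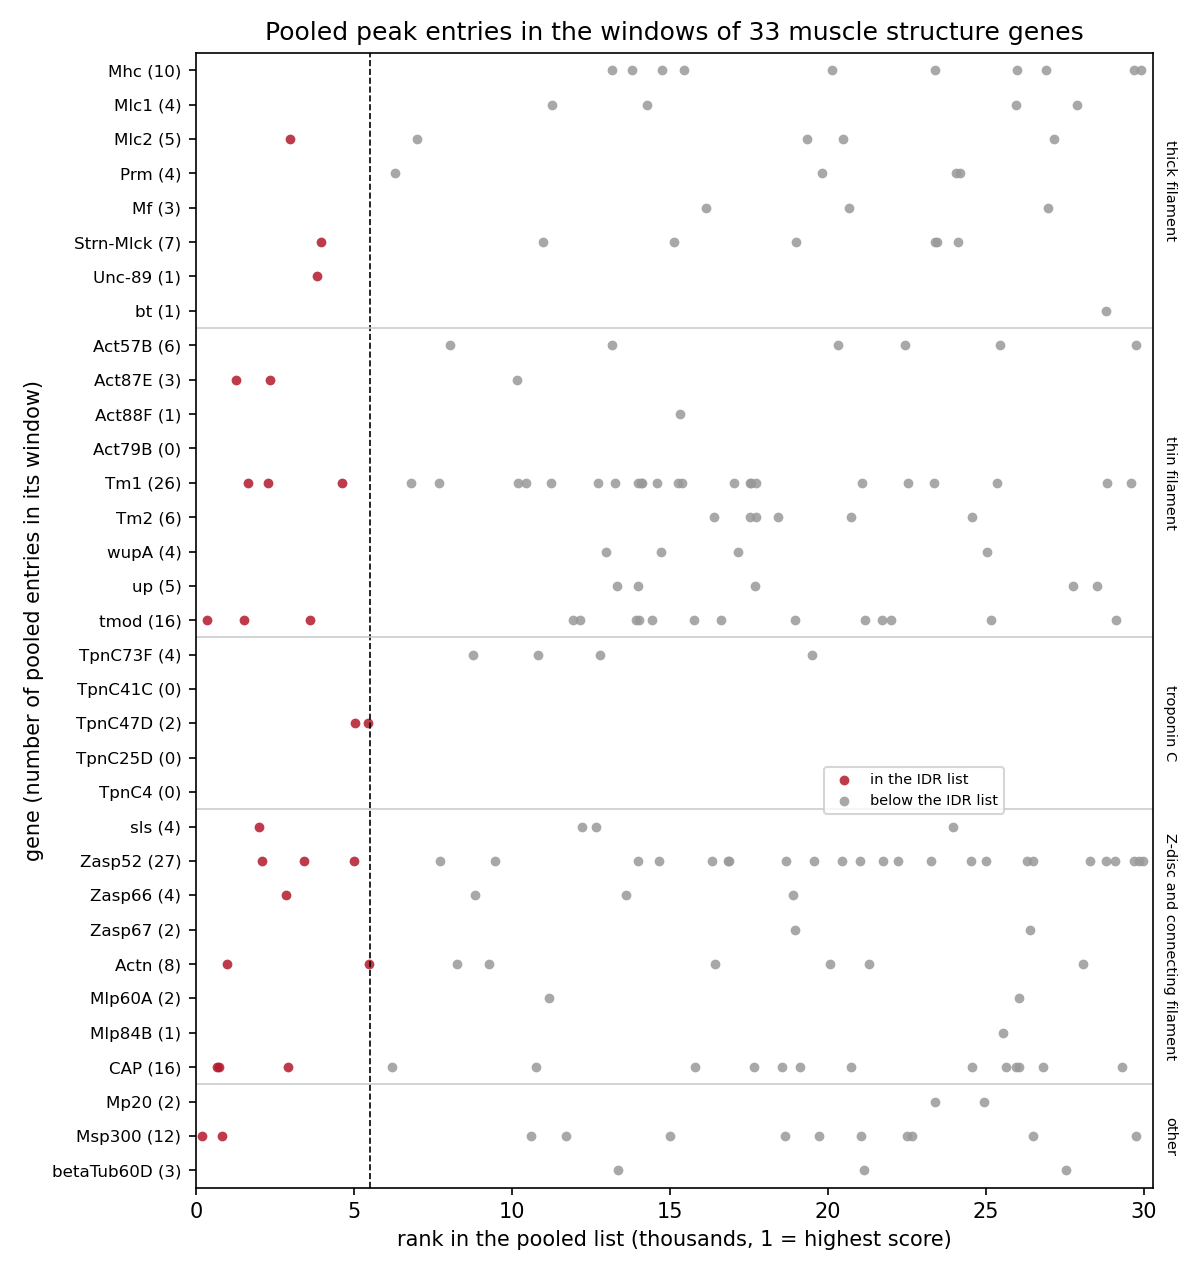
Every pooled entry in the windows of the 33 genes, by rank in the pooled list (x axis) and gene (y axis, grouped by role, with the number of entries in brackets). Red points left of the dashed line are the 25 IDR peaks and grey points the entries below the IDR list; the 20 genes without a red point include Mhc, whose best entry has rank 13170.

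Per length of sequence, IDR peaks were sparser than over all genes, and pooled entries of any rank were about as dense. The joined windows of the 33 genes cover 0.756 Mb and held 33 IDR peaks per Mb, against 48.2 per Mb over the windows of all protein-coding genes. The density of pooled entries was 247 per Mb for these genes and 249 per Mb for all genes. In each replicate's highest 5508 entries the density was 35.7, 30.4 and 29.1 per Mb, a mean of 31.7 ± 3.5 (SD, n = 3), against 48.1 ± 0.5 for all genes. It was below the mean for all genes in each of the 3 replicates. Of the pooled entries in these windows, 13.4% were IDR peaks, against 19.3% over all genes. The densities were not matched for width of window, with a median of 13.1 kb for these genes and 6.17 kb for all genes. The part of window width in the difference was not tested.

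**Figure D2:**
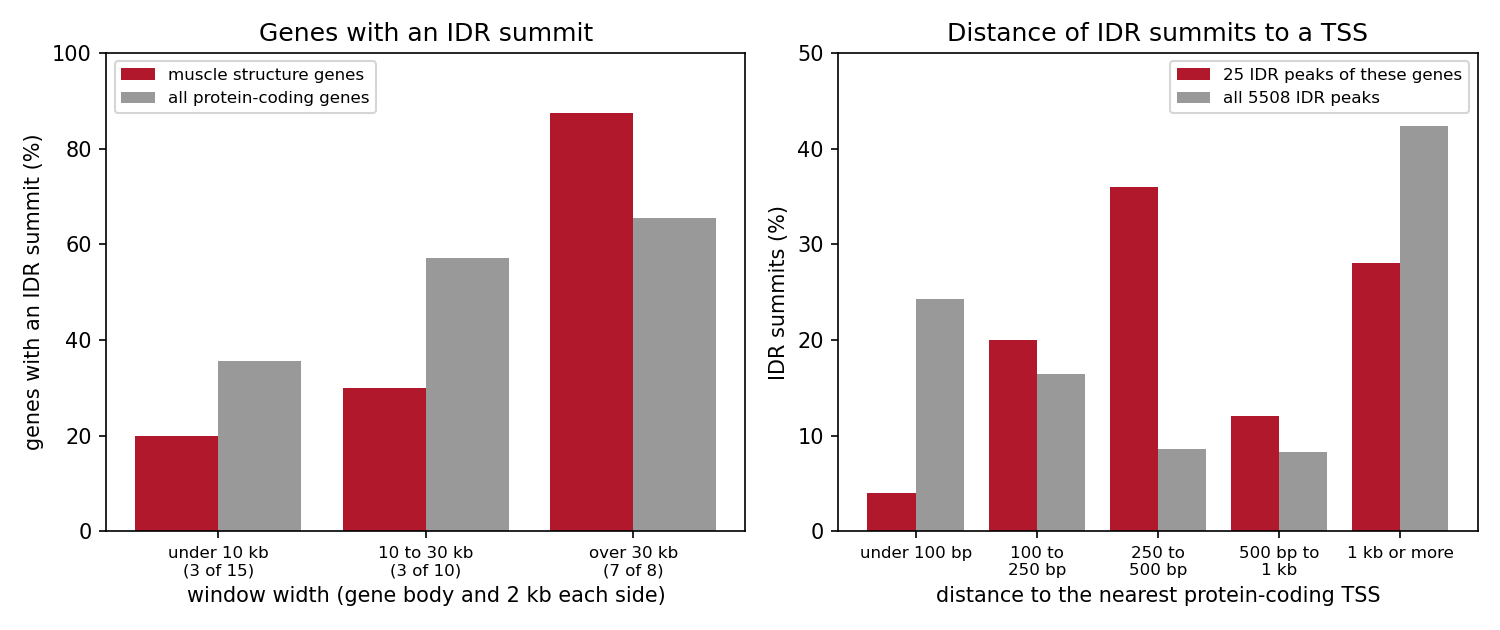
Left, the share of genes with an IDR summit by width of window, for the 33 genes (red, counts in brackets) and all protein-coding genes (grey). Right, the distance of the IDR summits to the nearest protein-coding TSS for the 25 peaks and for all 5508; 36% of the 25 lie 250 to 500 bp away, against 8.64% of all.

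The Z-disc and connecting-filament genes had the largest share with a peak among the 5 roles. An IDR peak was present at 3 of 8 thick-filament genes, 3 of 9 thin-filament genes, 1 of 5 troponin C genes, 5 of 8 Z-disc and connecting-filament genes, and 1 of the 3 others. The shares were 37.5%, 33.3%, 20%, 62.5% and 33.3%, against the 40.6% of all genes. Of the 8 Z-disc genes, sls, Zasp52 and CAP had windows over 30 kb. Only sls and CAP of the 8 had an IDR summit within 500 bp of an own TSS. Among the thin-filament genes Act87E, Tm1 and tmod had one. Both Actn peaks lay nearest to TSSs of other genes. The shares depend on how roles were assigned: bt, titin-like and without an IDR peak, was counted with the thick filament. CAP, an adaptor at muscle attachment sites that had IDR peaks, was counted with the Z-disc.

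An IDR summit within 500 bp of an own TSS was found at 0 of the 8 thick-filament genes, against 24.3% of all genes, a difference that was not tested on so few genes. The peak at Mlc2, the regulatory light chain of myosin (chr3R:30170632-30171061, score 241), ranked 2962 in the pooled list and 2854, 2739 and 3711 in the 3 replicates. Its summit lay 591 bp beyond the end of Mlc2 and 360 bp from a TSS of Rsod. At Strn-Mlck, which encodes stretchin and myosin light chain kinase, the summit lay 1849 bp upstream of the gene and 61 bp from a TSS of CG8314, with rank 3959 and replicate ranks 2810, 5005 and 5003. At Unc-89, which is annotated as Obsc and encodes the M-line protein obscurin, the summit lay 271 bp outside the gene body and 217 bp from a TSS of CG3860, with rank 3845 and replicate ranks 3371, 5094 and 4746. All 3 peaks were thus nearest to a neighbouring gene, and all 3 were among the 5508 highest entries of every replicate.

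The other 5 thick-filament genes had weaker entries only. Mhc had 10 pooled entries, the best of rank 13170 and 86 bp upstream of a TSS. The entries nearest to that summit ranked 9530, 22119 and 13678 in replicates 1, 2 and 3. Prm, which encodes paramyosin of the filament core, came nearest to the IDR list, with rank 6289 and replicate ranks 4912, 15174 and 7127. Its summit was in an intron, and replicate 1 alone placed it among its 5508 highest. The best entries of Mlc1, the alkali light chain, and Mf, which encodes the thick-filament protein myofilin, ranked 11260 and 16153. Both lay beyond the ends of these genes, in introns of neighbouring genes. The best entry of bt, which encodes the titin-like protein projectin, ranked 28816, near the end of the list. It was the only pooled entry of bt and lay 1266 bp upstream of the gene, whose body of 52.1 kb held none.

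Among thin-filament genes the peaks were at Act87E, Tm1 and tmod. Act87E encodes a muscle actin, and its peak of rank 1262 (chr3R:13428426-13428644, score 421) had replicate ranks 1673, 1067 and 1371, a mean of 1370.3 ± 303.0 (SD, n = 3). This summit lay 148 bp beyond the end of the gene, with no TSS of another gene nearer than its own. A second peak, of rank 2340, lay 331 bp upstream of the Act87E TSS and had replicate ranks 2750, 2138 and 2277. The peaks thus flanked the gene on either side of a body of 2.39 kb.

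Tm1 encodes a tropomyosin with many isoforms and had 26 pooled entries in its window, of which 3 were IDR peaks. The peak of rank 1634 (chr3R:15280946-15281089, score 360.3) had replicate ranks 1560, 2071 and 1244, a mean of 1625 ± 417 (SD, n = 3), and its summit lay 326 bp upstream of an internal TSS. An overlapping peak of rank 2287 lay 121 bp upstream of that TSS, and replicate 1 had 1 entry for both. The peak of rank 4623 lay in an intron and ranked 6685, 4334 and 3984, outside the 5508 highest entries of replicate 1.

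The highest rank of a thin-filament gene was at tmod, which encodes tropomodulin, the cap of the pointed ends of actin filaments. Its peak of rank 353 (chr3R:30540257-30540554, score 784) had replicate ranks 333, 451 and 352, a mean of 379 ± 63.4 (SD, n = 3). This summit lay in an intron, 7.80 kb from the start of the gene and 1445 bp downstream of the nearest tmod TSS. The peak of rank 1526 lay 38.1 kb into the gene, 417 bp upstream of an internal TSS, and that of rank 3609 lay 430 bp upstream of the first TSS. All 3 tmod peaks were among the highest 5508 of every replicate.

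The other thin-filament genes stayed below the IDR list. Act57B, which encodes a muscle actin, had 6 pooled entries, the best of rank 8045 and 14 bp from its TSS, with replicate ranks 9822, 18920 and 7927. The best entries of wupA and up, which encode troponin I and troponin T, ranked 12969 and 13337 and lay 160 and 116 bp upstream of TSSs of their own. Those of Act88F, the actin of the indirect flight muscle, and Tm2, a tropomyosin next to Tm1, ranked 15309 and 16411. The windows of Tm1 and Tm2 share 2 pooled entries. Act79B had no pooled entry, and an entry was listed in replicate 3 only, at rank 23291.

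Of the 5 genes for troponin C, the calcium sensor of the thin filament, TpnC47D had IDR peaks, near the end of the list. Its peaks ranked 5018 and 5436, lay 486 and 689 bp upstream of its TSS and overlapped each other. The stronger (score 159) had replicate ranks 5132, 8380 and 4324, so replicate 2 did not place it among its 5508 highest. TpnC73F had 4 pooled entries, the best of rank 8776 in its coding sequence. Replicate 1 alone had an entry overlapping it, of rank 7012. Another entry of replicate 1 in the window, of rank 5388, was among its 5508 highest. TpnC41C, TpnC25D and TpnC4 had no entry in any of the 5 lists.

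The Z-disc and connecting-filament genes with IDR peaks were sls, Zasp52, Zasp66, Actn and CAP. At sls, the fly titin gene, the peak (chr3L:2115764-2115921, score 317) lay 236 bp upstream of the annotated start of the gene, with rank 1985 and replicate ranks 2214, 2089 and 1853, a mean of 2052 ± 183 (SD, n = 3). The 75.9 kb of the gene body and its flanks held 4 pooled entries in all. This peak and the entries of ranks 12211 and 12670 lay upstream of the gene. Only the entry of rank 23959 lay in the body, 1.49 kb from its start. Zasp66 encodes a PDZ domain protein of the Z-disc, and its peak lay in an intron with rank 2861 and replicate ranks 2562, 2781 and 3248. Actn encodes alpha-actinin, which cross-links actin filaments at the Z-disc. Its peaks of ranks 993 and 5473 overlapped and lay inside the annotated body of Actn, 194 and 159 bp from TSSs of usp, a nuclear receptor gene, and of CG4313. The first (chrX:2041368-2041598, score 480) had replicate ranks 1129, 1843 and 629, a mean of 1200.3 ± 610.1 (SD, n = 3).

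CAP encodes an adaptor with SH3 domains at muscle attachment sites and had 3 IDR peaks, of ranks 670, 737 and 2917. The first (chr2R:10271258-10271570, score 580.2) had replicate ranks 903, 659 and 538, a mean of 700.0 ± 186 (SD, n = 3), and the second had 930, 782 and 590. They lay 494 and 324 bp upstream of internal TSSs of CAP, 2.37 and 33.7 kb into the gene. The third ranked 1310, 5015 and 9356 and was outside the highest 5508 of replicate 3.

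At Zasp52, the PDZ and LIM protein gene with 27 pooled entries, 1 of the 3 IDR peaks ranked far higher in replicate 1 than in the others. This peak (chr2R:15762340-15762562, score 305, rank 2093) lay 99 bp beyond the end of the gene and had replicate ranks 681, 7740 and 5867, a mean of 4763 ± 3657 (SD, n = 3). The peak of rank 3428 lay in an intron, with replicate ranks 3044, 4646 and 3608. The peak of rank 5001 lay 1667 bp upstream, in an intron of tun, with replicate ranks 4807, 6637 and 4704. The remaining Z-disc genes had no IDR peak. The best entries of Mlp60A and Mlp84B, which encode muscle LIM proteins, ranked 11189 and 25530, and that of Zasp67 ranked 18963. The Mlp84B entry lay beyond the end of the gene, in an intron of a neighbouring gene.

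The strongest peak of all 33 genes was at Msp300, which encodes a giant nesprin-like protein that anchors nuclei and other organelles in muscle. This peak (chr2L:5107890-5108348, score 984) ranked 204 in the pooled list and 179, 306 and 170 in the replicates, a mean of 218 ± 76.1 (SD, n = 3). Its summit lay 334 bp upstream of an internal TSS, 7.30 kb into the gene. A second peak of rank 833, with replicate ranks 798, 809 and 910, lay 638 bp upstream of another internal TSS, 44.9 kb into the gene. The best entry of Mp20, a calponin-like muscle protein gene, ranked 23391, and that of betaTub60D, which encodes a beta-tubulin of developing mesoderm, ranked 13354.

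**Figure D3:**
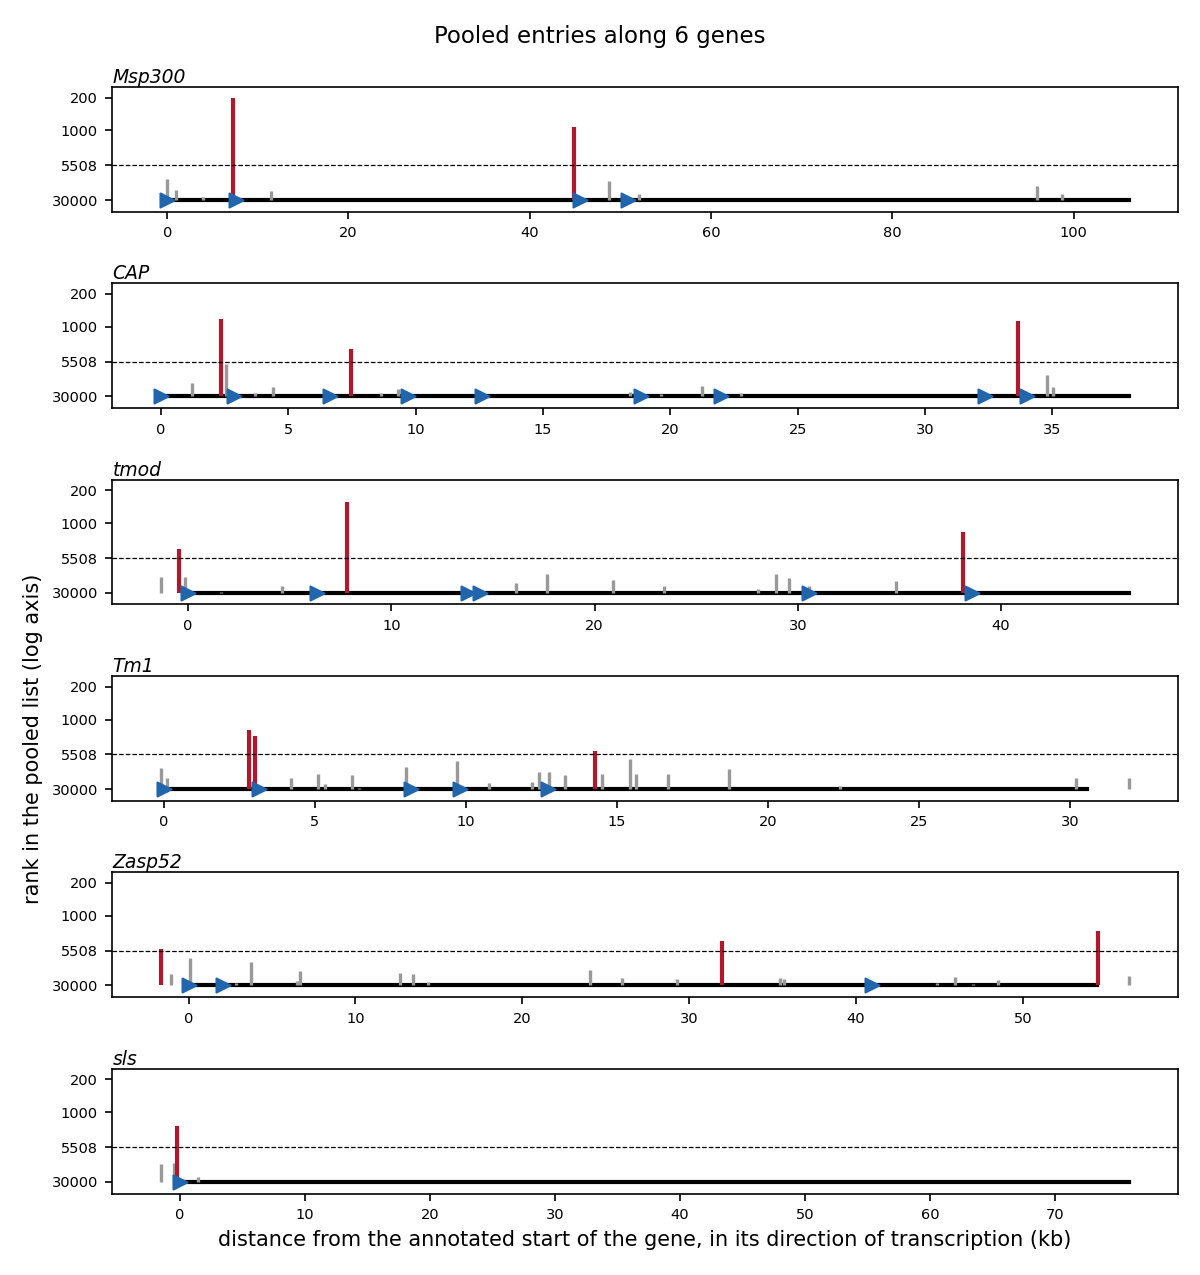
Pooled entries along 6 of the genes, by distance from the annotated start (x axis, kb) and rank in the pooled list (y axis, log, taller is higher ranked). The black bar is the gene body, blue triangles its promoters, red lines IDR peaks and grey lines entries below the IDR list (under the dashed line); the red lines at Msp300 stand shortly before internal promoters.

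Where a peak lay at a promoter of the gene itself, its summit lay upstream of it. Of the 25 summits, 10 lay within 500 bp of a TSS of their own gene, 121 to 494 bp away, and all 10 were on the upstream side. By the nearest protein-coding TSS of any gene, 15 of 25 summits (60%) lay within 500 bp, against 49.3% of all IDR peaks, and 14 of these 15 were upstream (93.3%), against 86.4%. Only 1 of the 25 (4%) lay within 100 bp of a TSS, the Strn-Mlck peak at CG8314, while 24.3% of all IDR summits did. Between 250 and 500 bp were 9 of 25 (36%) against 8.64%, and 7 (28%) were 1 kb or farther away against 42.4%.

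Few of the annotated promoters had a peak. Of 76 promoters of the 33 genes, 9 (11.8%) had an IDR summit within 500 bp, against 20.9% of 17154 promoters of all genes. These were 2 of 6 at tmod, 2 of 9 at CAP, 1 of 5 at Tm1, 1 of 4 at Msp300 and the 1 promoter each of Act87E, TpnC47D and sls. By gene, 7 of 33 (21.2%) had an IDR summit within 500 bp of a TSS of their own, against 24.3% of all genes, and 9 of 33 (27.3%) had an IDR summit nearest to a TSS of their own, against 23.9%. For 6 of the 25 peaks the nearest TSS belonged to another gene. These were the peaks of Mlc2, Strn-Mlck and Unc-89, both Actn peaks and the intronic Zasp52 peak of rank 3428, which lay 8956 bp from a TSS of tun and 8982 bp from its own.

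The 25 peaks had a median rank of 2340, against 2754.5 for all IDR peaks, and 13 of 25 were among the 2754 IDR peaks with the highest scores. All 3 replicates had an overlapping entry among their 5508 highest for 19 of 25 (76%), against 72.5% of all IDR peaks. This count includes the Actn peak of rank 5473 through entries that also overlap its neighbour. By nearest summit, that peak ranked 4184, 9891 and 12305. It was the lowest-ranked of the 25, with score 148.0. The best entry of these genes below the IDR list, which ends at rank 5508, was a CAP entry of rank 6204 with score 132.5. Below the IDR list, 45 of 162 entries (27.8%) were overlapped by an entry in all 3 replicates, against 34.1% of all such entries.

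**Figure D4:**
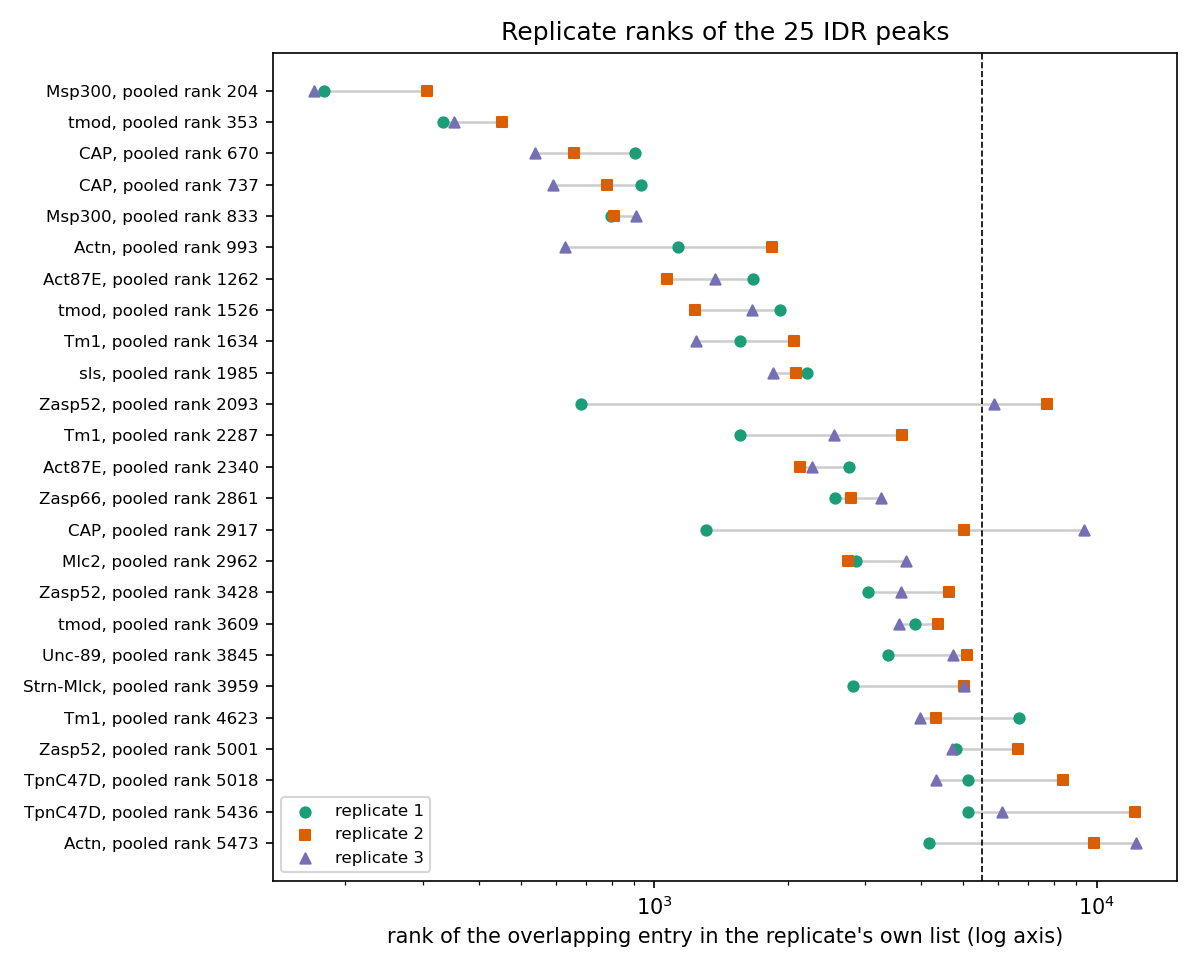
Rank of each of the 25 IDR peaks in the list of each replicate (x axis, log), with the peaks ordered by pooled rank (y axis) and grey bars from the lowest to the highest rank. Ranks of the Msp300, tmod and sls peaks lie close together, while those of Zasp52 rank 2093 and CAP rank 2917 span both sides of the dashed line at rank 5508. Those of Tm1 rank 4623, both TpnC47D peaks, Zasp52 rank 5001 and Actn rank 5473 also span it.

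A Tinman site lay at 1 summit, and the other sites lay farther out in the peaks. Within 50 bp of the summit 1 of 25 peaks (4%) held a Tinman site, against 4.23% of all IDR peaks. That site was 5 bp from the summit of the CAP peak of rank 670. Anywhere in the peak, 7 of 25 (28%) held a site, against 13.8%. They were the peaks of Strn-Mlck and Unc-89, both TpnC47D peaks, the tmod peak of rank 353, the Actn peak of rank 5473 and the CAP peak. All sites in the peaks read TTAAGTG, and the TpnC47D peaks overlap and share the same site. The Strn-Mlck, Unc-89 and Actn peaks among them lay nearest to TSSs of other genes. In 101-bp windows 500 bp to the left and right of the summit, 2 and 1 of the 25 held a site, against 3.36% and 2.94%.

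Mef2 sites lay within 50 bp of 4 of 25 summits (16%), against 6.45% of all IDR peaks. Within 100 bp it was 5 of 25 (20%) against 12.8%. Anywhere in the peak it was 7 of 25 (28%) against 18.1%, with both overlapping TpnC47D peaks among the 7. In the windows 500 bp to the left and right of the same summits 1 and 2 of 25 held such a site, against 2.6% and 2.92%. The sites within 50 bp lay at both Msp300 peaks, 34 and 41 bp from the summits. The others were at Act87E, 13 bp from the summit of rank 2340, and at TpnC47D, 18 bp from the summit of rank 5018. Both the Msp300 and the Act87E sites are the capitals in the sequences above. Mef2 sites are rich in A and T. The GC content of these 4 windows was 43.6% and 21.8% at Msp300, 22.8% at Act87E and 32.7% at TpnC47D. The median of all IDR peaks was 34.7%. The part of base composition in the count was not tested. An E-box (CANNTG) was present within 50 bp of 14 of 25 summits (56%) against 36.1%, and anywhere in 18 of 25 peaks (72%) against 78.2%. The windows 500 bp to the left and right held an E-box at 36% and 36% of these peaks, against 41.5% and 41% of all. The promoter motif DRE (TATCGATA) was in 0 of 25 windows against 2.58%, and GAGA (GAGAG) in 3 of 25 (12%) against 9.71%.

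**Figure D5:**
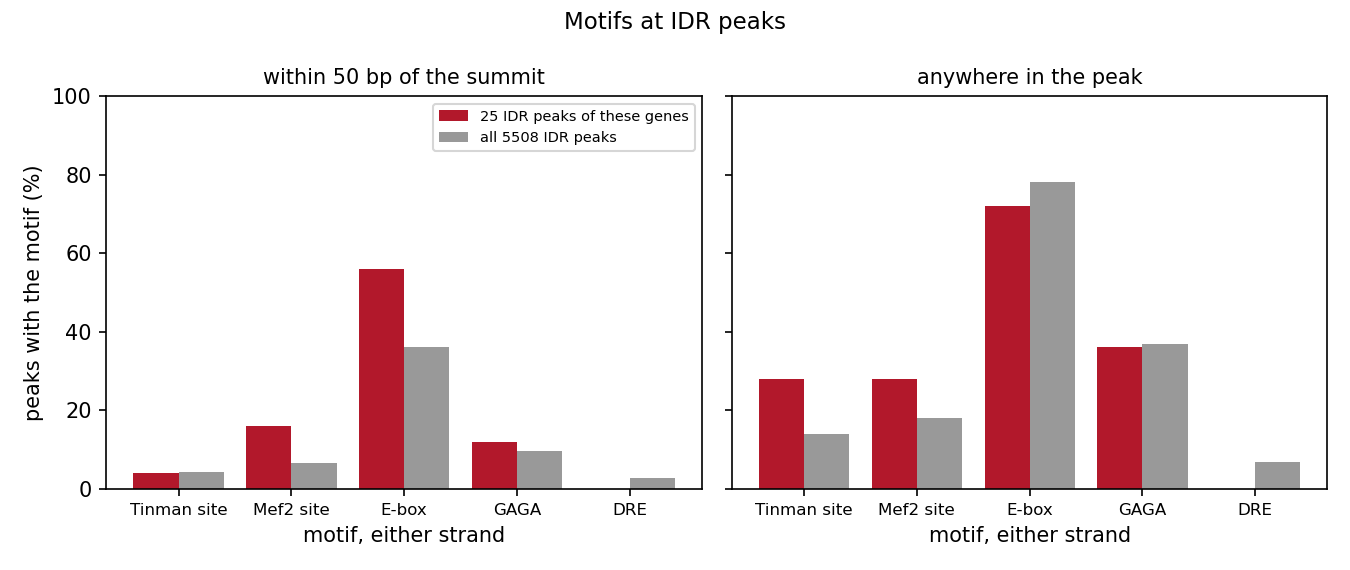
Share of peaks (y axis) with each motif (x axis) within 50 bp of the summit (left) and anywhere in the peak (right), for the 25 IDR peaks of these genes (red) and all 5508 IDR peaks (grey). Mef2 sites were at 16% of the 25 summits against 6.45% and in 28% of the peaks against 18.1%. Tinman sites were at 4% of the summits against 4.23% and in 28% of the peaks against 13.8%. The overlapping TpnC47D peaks share the same Tinman site.

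Counts for 2 other gene lists are set beside the 13 of 33 (39.4%) and the 40.6% of all genes. Of 12 further muscle structure genes, 9 (75%) had an IDR peak, and of 13 genes for the non-muscle cytoskeleton, 10 (76.9%) had. In windows under 10 kb, against 35.5% of all genes, it was 3 of 15 sarcomere genes, 3 of 5 of the further muscle genes and 7 of 10 of the non-muscle genes. Between 10 and 30 kb, against 57.2%, it was 3 of 10, 4 of 4 and 3 of 3. Over 30 kb, against 65.5%, it was 7 of 8 sarcomere genes and 2 of 3 further muscle genes, and the non-muscle list held no such gene. The highest ranks were at Dys, the dystrophin gene (rank 463), in the first list and at Act5C, a cytoplasmic actin gene (rank 339), in the second. Act87E, the highest-ranked of the 4 muscle actin genes, had rank 1262. These lists were chosen with earlier results known, and the differences were not tested.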

How the data were processed

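ChIP-seq peak lists of 3 biological replicates were used. Their labels' antibody field names tin, while the description names GFP. Per the labels, chromatin was sonicated to fragments of 200 to 800 bp. Peak lists in narrowPeak form were deposited on dm6, and the 5 lists on dm3 were not used here. Entries were ranked by the score that the authors deposited, a peak caller's value. Its normalization, the caller and the aligner are not stated in the labels or file notes. The −log10 q values deposited beside it were constant at 4.05 in the IDR list. That list holds the 5508 highest-scoring pooled entries, 18.4% of the pooled list. The lists hold no read counts, so depth is unknown and no interval could be given. Genes came from Ensembl release 115 (BDGP 6.54) and sequence from RefSeq Release 6. A replicate's rank for a peak is that of the overlapping entry with the nearest summit. Scripts ran in Python 3.11.15 with pandas 2.3.3 and numpy 2.4.6 and were tested on simulated windows and sites. The genes, lists and motifs were chosen with earlier results of these data known, so all counts are descriptions set beside all genes or all IDR peaks. All 33 genes are named, and neighbours are named where an IDR summit in a window lies nearest to their TSS. Fhod, of the further muscle list, had no match in the annotation. Dys, Act5C and the entries just outside the IDR list were named after their values were seen. Alternatives changed the window, the list, the replicates required to overlap an IDR peak, the TSS distance and the motif window.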

Additional observations from a re-analysis of the deposited data

How the results depend on the processing

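The count of 13 genes with an IDR peak was 7 with gene bodies alone and 8 with the 2754 highest-scoring IDR peaks, and the 25 peaks became 14 and 13. With 5 kb either side, 16 genes and 33 peaks were counted. Each replicate in turn was set aside, and IDR peaks overlapping an entry among the 5508 highest of both others were kept. This filter can only remove peaks, since the IDR list itself was not remade. It gave 12 to 13 genes and 20 to 22 peaks. TpnC47D was the gene lost with replicate 1 and with replicate 3 set aside. Of the alternatives chosen after seeing the data, counting summits at most 300 bp apart once gave 22 peaks, and requiring the nearest TSS to be the gene's own gave 9 genes. The share of all genes, 40.6%, was 29.2% over all annotated genes, 12.8% with gene bodies alone, 54.3% with 5 kb and 25.9% with the 2754 highest-scoring peaks. With single replicates set aside by the same filter, also chosen after seeing the data, it was 33.8% to 34.8%. Summits near an own TSS fell from 10 within 500 bp to 2 within 250 bp, and were 15 within 1000 bp. With all annotated genes, 7 in place of 6 peaks lay nearest to another gene. The Tinman site count of 1 was 5 within 100 bp (20% against 8.79% of all IDR peaks), 7 over whole peaks (28% against 13.8%) and 4 for AAGTG alone (16% against 23.5%). With summits at most 100 bp apart, 17 peaks in place of 19 were found in all 3 replicates. Ranking by −log10 q was not run, because the value is constant in the IDR list. No paired analysis was possible because the 3 samples form 1 group. Depth is unknown, and the 33 genes are few, so a share moves by several points with 1 gene.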

Other observations

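Beyond the 2 kb window, 8 further IDR summits lay between 2 and 5 kb from the gene bodies. At Act57B, a muscle actin gene without an IDR peak in its window, a summit of rank 3713 lay 4108 bp from the gene, and its nearest TSS was that of Act57B. The others lay nearest to TSSs of neighbours, 1 near Zasp52 to CG33465 and 2 near CAP to RNaseZ and CG12909. The highest ranks among them were 63 near Strn-Mlck, 104 bp from a TSS of CG8320, 107 near Tm1, 136 bp from a TSS of the insulator protein gene Cp190, and 227 near Mlp84B, 595 bp from a TSS of Alh. At Prm a summit of rank 4960 lay 3732 bp from the gene and 684 bp from a TSS of CG13306. These summits were chosen for mention after their values were seen.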
